A study of Arabidopsis thaliana with 4 samples.

Results

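AT3G53600 and ZAT10 are 2 genes for C2H2 zinc finger proteins of Arabidopsis thaliana, and their transcript levels were compared between control seedlings and seedlings given reduced glutathione (GSH). ZAT10, locus AT1G27730, is also called STZ, for salt tolerance zinc finger. RefSeq lists AT3G53600 by its locus code alone. Both were selected on their measured log2 difference between treated and control arrays, so their own values are given as a description with no test. Each gene is measured by 1 probe set that the array annotation gives to that gene alone, 251950_at for AT3G53600 and 261648_at for ZAT10. They are 2 of the 13356 genes measured by such probe sets. A gene to which the annotation gives no such probe set counts as not measured and may still be on the array.

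C2H2 zinc finger proteins fold around a zinc ion held by a pair of cysteines and a pair of histidines, and they bind DNA. In plants the ZAT group is known from responses to salt, cold, drought, strong light and reactive oxygen. ZAT10 is known mainly as a repressor of transcription, which it owes to a short EAR motif, and its transcript is known to rise quickly and briefly after stress. GSH is the main soluble thiol of plant cells and takes part in the removal of peroxides.

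The study measured total RNA of seedlings of the Columbia ecotype on 4 one-colour Affymetrix arrays, 2 for control seedlings and 2 for treated ones. Seedlings were 15 days old per the labels, and the treated group received GSH for 72 hours. No dose is given, and no label says whether controls were also kept for those 72 hours, so the groups may not have been of equal age when harvested. No transgene or mutation is named for either group. The replicates are called biological in the labels, but nothing says that they came from separate cultures.

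Of the 4 measured markers of green tissue, the antenna protein gene LHCB4.1 was the brightest. Its group means were 12.76 and 12.55 in log2 value in control and treated seedlings. The least bright, LHCB4.3, had means of 4.75 and 4.54, which are not shown to be above background. The 3 measured root markers, PYK10, EXPA7 and EXPA18, lay between 3.93 and 4.33, low on the arrays, and are not shown to be above background. By the annotation used, no listed seed, embryo or flower marker had a probe set of its own, so these tissues were not assessed. Of 4 green tissue genes, 2 were lower and 0 higher in treated seedlings by limma at an adjusted p under 0.05, where 17.5% of all probe sets were lower and 16.2% higher. The antenna gene LHCB4.2 and the Rubisco activase gene RCA passed at -0.42 and -0.24 log2 units, while LHCB4.1 (-0.21) and LHCB4.3 (-0.22) did not. Of the root markers 0 of 3 passed by limma, and 1 had an unadjusted p under 0.05, as did 9736 of the 22746 probe sets. The differences of the 3 ran from -0.25 to 0.13. The part of these shifts in the results below was not tested.

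AT3G53600 had a much higher signal in treated seedlings. On the control arrays its log2 values were 6.02 and 5.96, and on the treated arrays 9.32 and 9.11. Both treated arrays stood far above both controls, and the groups did not overlap. The mean was 5.99 ± 0.04 (SD, n = 2) in controls and 9.21 ± 0.15 (SD, n = 2) after GSH, a log2 difference of 3.22 ± 0.09 (SE from limma) or 9.35-fold. The 4 possible pairs of a treated and a control array differed by 3.09 to 3.36 log2 units. Treated replicate 1 was the highest and treated replicate 2 the next, 0.21 log2 units apart, while the controls were 0.06 apart. In RNA of whole seedlings, a change in how many cells express a gene cannot be told apart from a change in RNA per cell.

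ZAT10 had nearly the same signal in both groups. On the control arrays its log2 values were 12.29 and 12.28, and on the treated arrays 12.18 and 12.20. Both treated arrays lay slightly below both controls, so the groups did not overlap, but the gap between the nearest arrays was only 0.08 log2 units. The mean was 12.28 ± 0.01 (SD, n = 2) in controls and 12.19 ± 0.01 (SD, n = 2) after GSH. The log2 difference was -0.09 ± 0.07 (SE from limma), a ratio of 0.939. The replicates of ZAT10 were closer together than those of most genes, with gaps of 0.01 and 0.02 log2 units against medians of 0.08 and 0.09 over all probe sets in the control and treated groups.

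**Figure D1:**
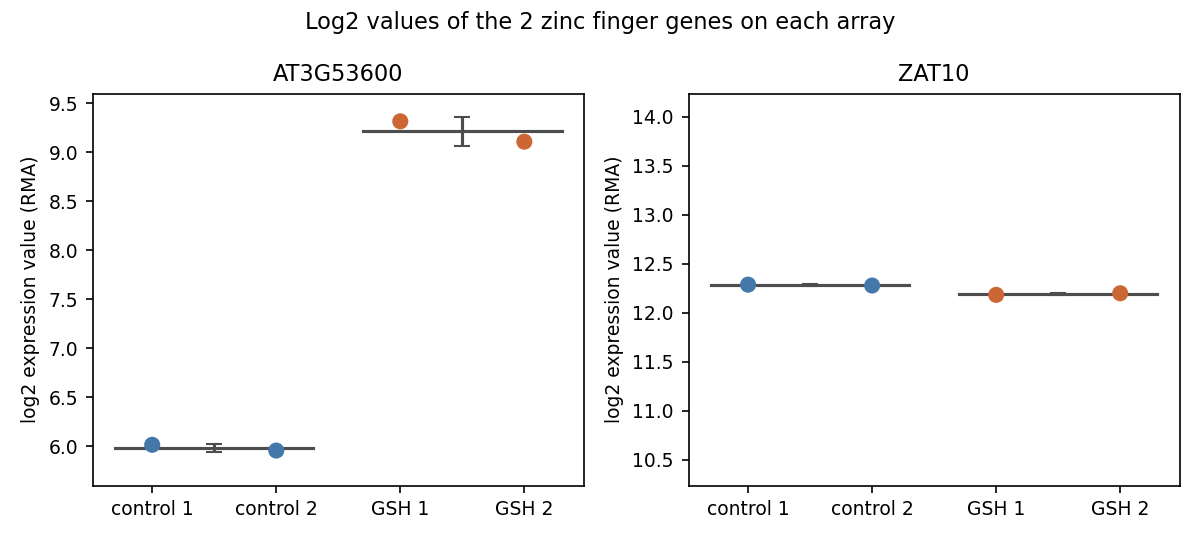
Log2 expression values (vertical axis) of AT3G53600 and ZAT10 on each of the 4 arrays (horizontal axis). Points are arrays, horizontal lines group means and bars the SD of 2 arrays, and both panels span the same 4 log2 units. AT3G53600 stands near 6 on the control arrays and above 9 on the treated ones, while ZAT10 stays between 12.18 and 12.29.

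Such separation of the groups was common on these arrays. Groups did not overlap for 65.2% of the 22746 probe sets tested, and limma called 33.8% at an adjusted p under 0.05, 16.2% higher and 17.5% lower in treated seedlings. A difference of at least 2-fold upward without overlap was rarer, at 2.27% of probe sets, and AT3G53600 is one of these. Its difference was the 11th largest increase of all probe sets and the third largest among genes with a probe set of their own. By the size of its difference in either direction, ZAT10 exceeded 32.5% of probe sets.

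Probe sets of like brightness put both differences in context. Of the 1097 probe sets whose control mean lay within 0.25 log2 units of that of AT3G53600, none other had an increase as large, and their median difference was 0.30 log2 units in size. Limma called 51.4% of those 1097. Of the 159 probe sets as bright as ZAT10, 32 differed less than it did and 141 had groups that did not overlap. Their median difference was 0.25 in size, and limma called 51.6% of them.

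**Figure D2:**
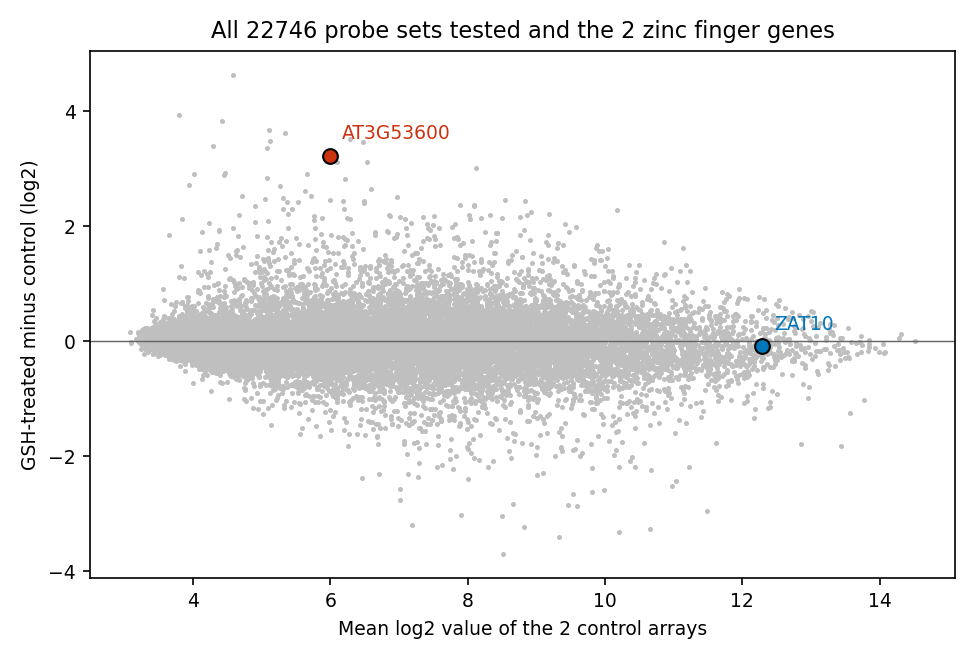
Difference between treated and control means in log2 units (vertical axis) against the mean log2 value of the 2 control arrays (horizontal axis) for 22746 probe sets, drawn as grey points. AT3G53600 lies at a difference of 3.22 at the upper edge of the cloud, and ZAT10 lies at -0.09 among the brightest probe sets.

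The brightness of the probe sets bears on how firm these sizes are. AT3G53600 lay at the 56th percentile of signal on both control arrays and at the 88th and 87th percentiles on treated replicates 1 and 2. No detection calls were used, so its control level is not shown to be above background and the size of its difference is uncertain. ZAT10 stood at the 99th percentile on all 4 arrays, where a change can be compressed. Control RNA that does not come from the seedlings also gave lower signals on treated arrays. The median over 18 hybridization control probe sets was -0.16 log2 units (range -0.45 to 0.01), and that of 27 for spiked-in Bacillus RNA was -0.26 (range -0.87 to 0.13). The difference of ZAT10 lay inside both ranges. The signal of 25S ribosomal RNA of the seedlings, taken from 1 probe set, differed by far more, at -2.97 log2 units. The part of such shifts in the values of AT3G53600 and ZAT10 was not tested.

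Other C2H2 zinc finger genes gave low signals and did not pass. Beside AT3G53600 and ZAT10, 51 loci named as C2H2 transcription factors by RefSeq symbol or synonym were listed, and 7 of them had a probe set of their own. Limma called 0 of these 7, beside 33.8% of all probe sets. An unadjusted p under 0.05 was found for 0 of the 7 and for 9736 of the 22746 probe sets. Their differences ran from 0.01 to 0.09 log2 units with a median of 0.08, against -0.01 over all probe sets. Their group means lay between 3.84 and 4.37, which is not shown to be above background, so they give little information on the family. In the ZAT and AZF group itself, the annotation gave relatives such as ZAT6, ZAT12 and AZF2 no probe set of their own.

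The 7 genes act mostly in development. GIS, which promotes hair formation on stems, had mean log2 values of 4.28 in controls and 4.37 after GSH. JAG and NUB, which shape leaves and floral organs, differed by 0.09 ± 0.14 and 0.03 ± 0.09 log2 units (SE). RBE, a regulator of petal development, differed by 0.01 ± 0.10, and TAC1, an activator of telomerase, by 0.08 ± 0.11. JKD, which takes part in patterning of the root ground tissue, differed by 0.08 ± 0.08. IDD16, of the same INDETERMINATE DOMAIN family, differed by 0.07 ± 0.08. For all 7 genes the values of the groups overlapped, while groups did not overlap for 65.2% of all probe sets. At levels not shown to be above background, this says little about these genes.

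The few measured genes of the oxidative and light stress list, which holds stress genes that are often described together with ZAT10, rose. The list was chosen with earlier results of these data known, so the count is a description. The annotation gave its ZAT, APX, CSD and RBOH genes no probe set of their own, and a link with ZAT10 was not tested. The measured genes were 4 of its 28 members, 3 of them loci without a gene name. UPOX, another member, was left out before the count because RefSeq gives its locus another name. All 4 passed with limma, against 16.2% of all probe sets called higher. They were bright, with mean signals at percentiles 88.2 to 99.5. The share called in either direction was 33.8% over all probe sets but 51.6% among those as bright as ZAT10. AT1G57630 and WRKY6 were less bright than ZAT10, at control means of 9.25 and 8.975, and no share was taken at their level. AT1G57630 had log2 values of 9.26 and 9.24 in controls and 10.84 and 10.55 after GSH, and was 2.72-fold higher (log2 difference 1.45 ± 0.10, SE, limma adjusted p = 0.000135). WRKY6, a transcription factor of senescence and defence, had values of 8.97 and 8.98 in controls and 9.64 and 9.58 after GSH. It rose by 0.64 ± 0.07 (limma adjusted p = 0.000751). AT1G05340 and AT1G19020 rose less, by 0.33 ± 0.07 and 0.28 ± 0.07 (limma adjusted p = 0.0125 and 0.0237). The 4 had a median of 0.48 log2 units, against -0.01 for all probe sets. AT1G19020 lost its call when any single array was left out. AT1G05340 lost it without control replicate 1, where 2 of the 4 passed. Without moderation of the spread across probe sets, 1 did.

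In the list on salt, drought and cold, 4 of 27 genes were measured, of which 0 were higher and 1 lower, while 33.8% of all probe sets were called, 17.5% as lower. LTI30, a dehydrin raised by cold, had log2 values of 8.58 and 8.64 on the control arrays and 7.48 and 7.57 on the treated arrays. It fell by 1.09 ± 0.07 log2 units (SE, limma adjusted p = 0.000108), and its groups stood clear of each other. COR47, another dehydrin, stood at -0.19 ± 0.07 and did not pass (limma adjusted p = 0.104). With a prior that follows the mean signal COR47 passed too, so that 2 genes were called. COR15A and COR15B, which protect chloroplast membranes in the cold, differed by 0.08 and -0.12 at means of 3.81 to 4.02, not shown to be above background. The median of the list was -0.15.

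The list on the rapid response to wounding and elicitors, in which ZAT10 is usually placed as well, went both ways. Of its 30 members 6 were measured, of which 1 rose, 2 fell and 3 did not pass, with a median of -0.01. TZF10 and TZF11 were left out before the count because RefSeq gives their loci other names. Over all probe sets the share called was 33.8%. It was 51.4% among those with a control mean like that of AT3G53600 and 51.6% among those as bright as ZAT10. WRKY53, a transcription factor of early senescence and immunity, had log2 values of 9.21 and 9.10 in controls and 7.46 and 7.65 after GSH. It fell by 1.60 ± 0.09 (limma adjusted p = 5.53e-05), the largest change in the list. WRKY22, which acts in signalling after elicitors, rose by 0.30 ± 0.07 (limma adjusted p = 0.0201), a call that was lost without control replicate 2 and without either treated array.

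Among the U-box ubiquitin ligases of that list, which dampen immune signalling, PUB23 fell by 0.43 ± 0.07 (limma adjusted p = 0.00351). PUB22 and PUB24 differed by 0.01 ± 0.07 and 0.00 ± 0.08 and did not pass. CML38, a calmodulin-like calcium sensor, had log2 values of 11.01 and 11.06 in controls and 11.11 and 10.92 after GSH, with overlapping groups. Without moderation of the spread 0 of the 6 genes passed. Over all lists 14 of 94 genes were measured, and 5 were higher, 3 lower and 6 not called, beside 16.2% higher and 17.5% lower over all probe sets. Corepressors that bind EAR motifs, such as TPL and its relatives, made up a list of 9, of which 0 had a probe set of their own in the annotation.

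**Figure D3:**
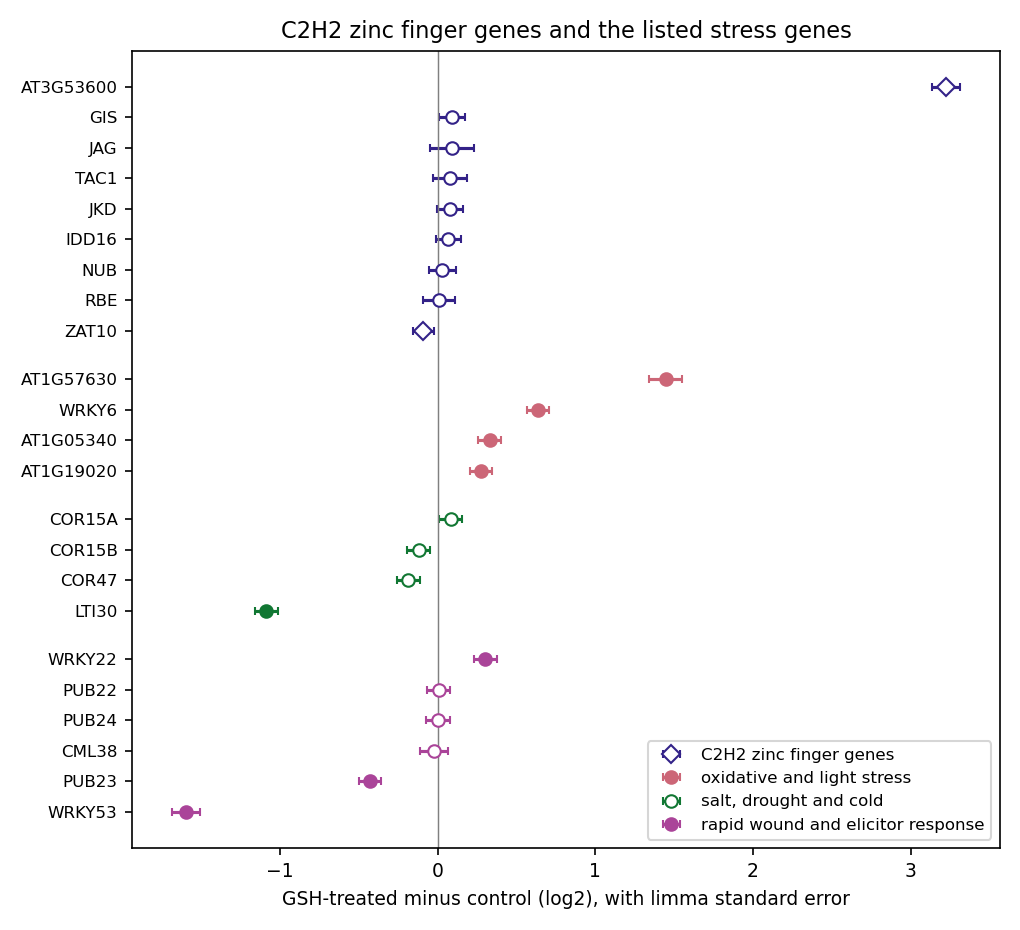
Log2 difference between treated and control seedlings (horizontal axis) with limma standard errors for the 9 C2H2 zinc finger genes and the 14 measured genes of the stress lists (vertical axis). Diamonds mark AT3G53600 and ZAT10, which were not tested, filled circles genes past the limma threshold and open circles those not past it. AT3G53600 lies at 3.22, the 7 other zinc finger genes lie from 0.01 to 0.09, and WRKY53 lies lowest at -1.60.

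A search over all genes for the pattern of AT3G53600 found few like it. The search used the same difference on which the gene was selected, which was among the largest on the arrays. Few near genes, and large increases among them, follow from that choice and are given as a description. Likeness was the Euclidean distance between the 4 log2 values of 2 genes, each centred on its own mean, so the measure follows the pattern and not the level. The nearest of the other 13355 genes was BGLU45, a beta-glucosidase gene, at a distance of 0.24 log2 units. It had log2 values of 6.02 and 6.18 in controls and 9.22 on both treated arrays. Next came AT1G09500 (distance 0.32), AT5G12340 (0.37), the auxin-conjugating enzyme gene GH3.3 (0.41), and BGLU27 (0.50). All of these stood at least 2.90 log2 units higher in treated seedlings. Only BGLU45 lay within 0.25 of AT3G53600.

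The same search around ZAT10 mainly returned genes with small differences. Of the other genes 7253 lay within 0.25 log2 units of its pattern. The nearest were AT2G19420, AT2G12990, AT5G26620, AT1G72110 and AT5G64450, at distances of 0.01 log2 units. Their differences ran from -0.10 to -0.08, close to the -0.09 of ZAT10, and 4 of them had group means from 3.37 to 4.13. Likeness over 4 arrays thus hardly sets ZAT10 apart from other genes.

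**Figure D4:**
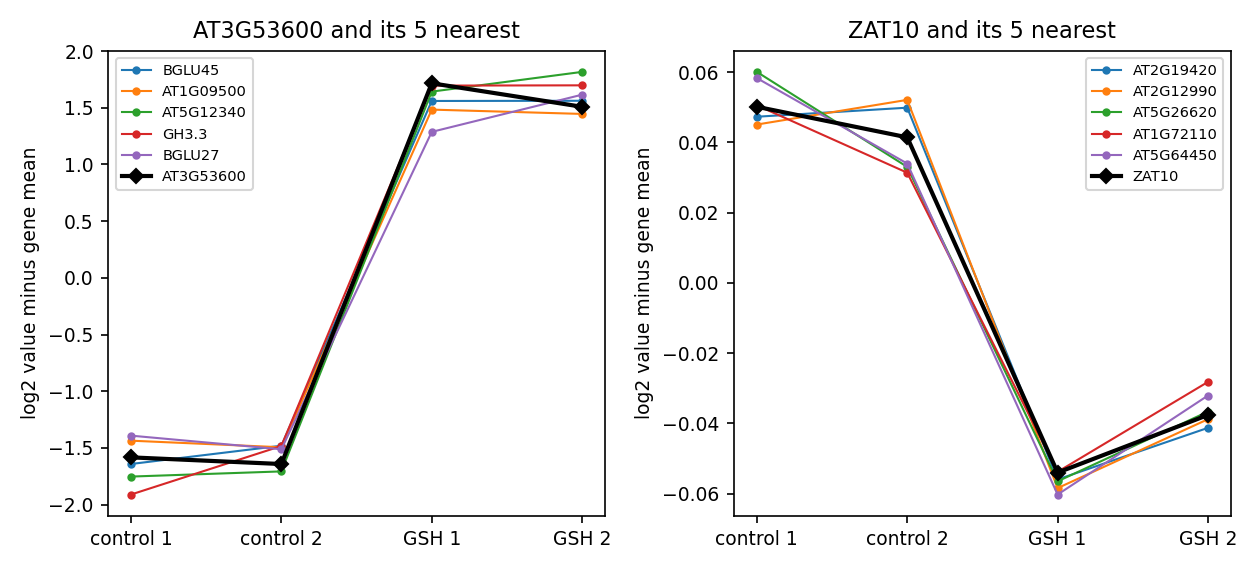
Log2 value minus the mean of the gene over the 4 arrays (vertical axis, different scales) on each array (horizontal axis) for AT3G53600 and ZAT10, drawn in black, and the 5 genes nearest to each. Lines join the values of 1 gene and imply no order of the arrays. The 5 genes around AT3G53600 differ by 2.90 to 3.46 log2 units between the groups, those around ZAT10 by -0.10 to -0.08.

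Too few genes next to the 2 loci on their chromosomes were measured to show whether they share a pattern. Over all probe sets limma called 16.2% higher and 17.5% lower. Of the 3 protein-coding genes on either side of AT3G53600, 2 were measured. AT3G53590, directly beside it in the gene order, had means of 3.79 and 3.84 and differed by 0.05 ± 0.08 log2 units (SE, limma adjusted p = 0.678). AT3G53580, the next but one, rose by 0.47 ± 0.07 (limma adjusted p = 0.00234). Around ZAT10, 1 of 6 neighbours was measured. AT1G27700, 3 genes away, rose by 1.43 ± 0.09, from a mean of 5.75 to 7.17 (limma adjusted p = 8.98e-05), beside the -0.09 of ZAT10.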

How the data were processed

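Each probe set has 1 deposited log2 value on each array, made by the authors with Affymetrix Expression Console and RMA, per the submitters' processing notes, and were used as deposited. RMA includes quantile normalization, so a shift shared by most transcripts would not be seen. Groups and replicate numbers came from the titles. The free-text sample descriptions speak of embryos, against the source, tissue and age labels, and were not used. With 4 arrays precision is low. The p-values rest only on the spread between these arrays, which limma moderates with the spread over all probe sets.

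The treatment effect was fitted in R 4.3.3 by limma 3.58.1 (lmFit, eBayes, 2 residual degrees of freedom, a prior of 4.55) over 22746 probe sets, leaving out 64 control probe sets, with Benjamini-Hochberg adjustment and a threshold of 0.05. The fit was tested on simulated data. The platform annotation gave 13513 probe sets a single gene, updated by gene identifier to RefSeq names (assembly TAIR10.1). The other probe sets have no gene or several genes in it. Coordinates are left out, since the array has no stated build. Where a gene had several probe sets, the one with the highest mean stood for it.

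The members and lists were chosen with earlier results of these data known. All measured genes of each list were named, with the 5 genes of nearest pattern. Zinc finger relatives were to be found by a protein motif, but protein sequences were not used here, so RefSeq names replaced it (53 loci, members included). This list, the comparison by brightness and the neighbours were added after the files were seen. From the lists, 3 genes (UPOX, TZF10 and TZF11) were left out because RefSeq gives their loci other names. They count as listed but not as measured.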

Additional observations from a re-analysis of the deposited data

How the results depend on the processing

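The log2 difference of AT3G53600 ran from 3.12 to 3.33 when each array was left out in turn and from 3.18 to 3.25 under the 3 other normalizations. That of ZAT10 ran from -0.10 to -0.08 without single arrays. It was -0.068 with arrays centred on their medians, -0.13 with upper quartiles and -0.075 after a second quantile normalization, and its groups did not overlap under any of these. Probe sets called numbered 7680, from 6186 to 6248 without single arrays, and 1425 without moderation. The share of calls that were higher was 48.1% as deposited, 52.0% with medians and 41.2% with upper quartiles. Of the 14 listed genes 8 were called, 6 without any single array and 2 without moderation. None of the 7 other zinc finger genes was called under any setting that tested it, with or without moderation. With the replicate number as a block 6235 probe sets and 6 listed genes were called, and AT1G19020 and WRKY22 were lost. The deviations of same-numbered arrays were weakly and negatively correlated (r = -0.10 across genes), which gives no sign that the numbers pair the arrays. With crossed numbers, an alternative added after the data were seen, 6898 were called. The family by protein motif was not run.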
